A study of Mus musculus with 16 samples.

Results

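The genes described here are 8 markers and regulators of primitive and visceral endoderm, Gata6, Gata4, Sox17, Sox7, Foxa2, Dab2, Cubn and Afp, taken by name from the 23420 genes counted by RNA-seq in mouse embryonic stem (ES) cells. The cells were J1 ES cells of 129S4/SvJae background at passage 36, collected on day 3. All of them, controls included, carried a transgene for dCas9-VPR, a dead Cas9 fused to transcriptional activators, together with a guide RNA against RLTR10B2, a long terminal repeat family of endogenous retroviruses, and DsRed. There were 4 groups of 2 libraries: neither agent (control), doxycycline at 1 µg/ml (Dox), expression of A-MYB, a male germ cell transcription factor encoded by Mybl1, without Dox (A-MYB), and both (Dox + A-MYB). Each library came from RNA of a well of cells, and no label says that the wells were independent cultures, so the p-values measure the spread between these libraries. No group had Dox without the activator, so an effect of the drug itself cannot be told apart from that of the activator. The labels do not say whether the line was a single clone.

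Primitive endoderm is the second lineage to form from the inner cell mass of the blastocyst, beside the epiblast from which ES cells derive. FGF signalling through the MEK and ERK kinases promotes it, and GATA6, GATA4, SOX17 and SOX7 are transcription factors that act in its specification and maturation. It gives rise to parietal endoderm, which lays down a thick basement membrane, and to visceral endoderm, which takes up nutrients through the endocytic receptors cubilin and megalin and secretes serum proteins such as alpha-fetoprotein. The ES cells of all groups grew without feeders in medium that held LIF, a GSK3 inhibitor and a MEK inhibitor, a combination that keeps ES cells in an epiblast-like naive state.

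Cubn and Dab2, of the endocytic machinery, stood highest in Dox + A-MYB cells, and Gata4 rose there by less. Against control, Cubn rose by a log2 of 5.06 (SE 0.83), Dab2 by 2.79 (SE 0.27) and Gata4 by 0.60 (SE 0.18). Sox17 and Gata6 did not pass the test in any comparison, and Sox7, Foxa2 and Afp had too few reads to be tested. Of the 8 genes, 5 were thus tested, 3 of which rose and 0 fell with both agents; over all 14664 genes tested, 33.5% rose and 30.4% fell in the same comparison. Of these 3, Cubn met the minimum for testing only through its Dox + A-MYB libraries, so the count of 3 depends in part on that group. A gene passed when its edgeR quasi-likelihood p, adjusted by Benjamini and Hochberg's method over all tested genes, was under 0.05. Levels are CPM, a gene's counts scaled to the library size with edgeR's cpm function and TMM factors, and 1 read was worth 0.0292 to 0.0389 CPM. Where libraries of different groups are said below not to overlap, the share of all tested genes with the same pattern was not counted.

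The libraries held 26995317 to 33771487 gene counts. Mybl1 stood at 6.92 to 8.38 CPM in the control libraries, at 10.6 ± 0.581 CPM (mean and SD, n = 2) in the Dox libraries, both above both controls, and at 16.6 to 22.0 CPM in the 4 libraries with A-MYB, with reads of the cell's own gene and of an added copy counted together. Both libraries that received the 2 agents differed from the rest: they had at least 1 count for 17554 and 17602 genes against 16027 to 16512, and 8.80 and 9.43% of reads assigned to no gene against 7.28 to 8.34%. Their part in the results below was not tested.

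**Figure D1:**
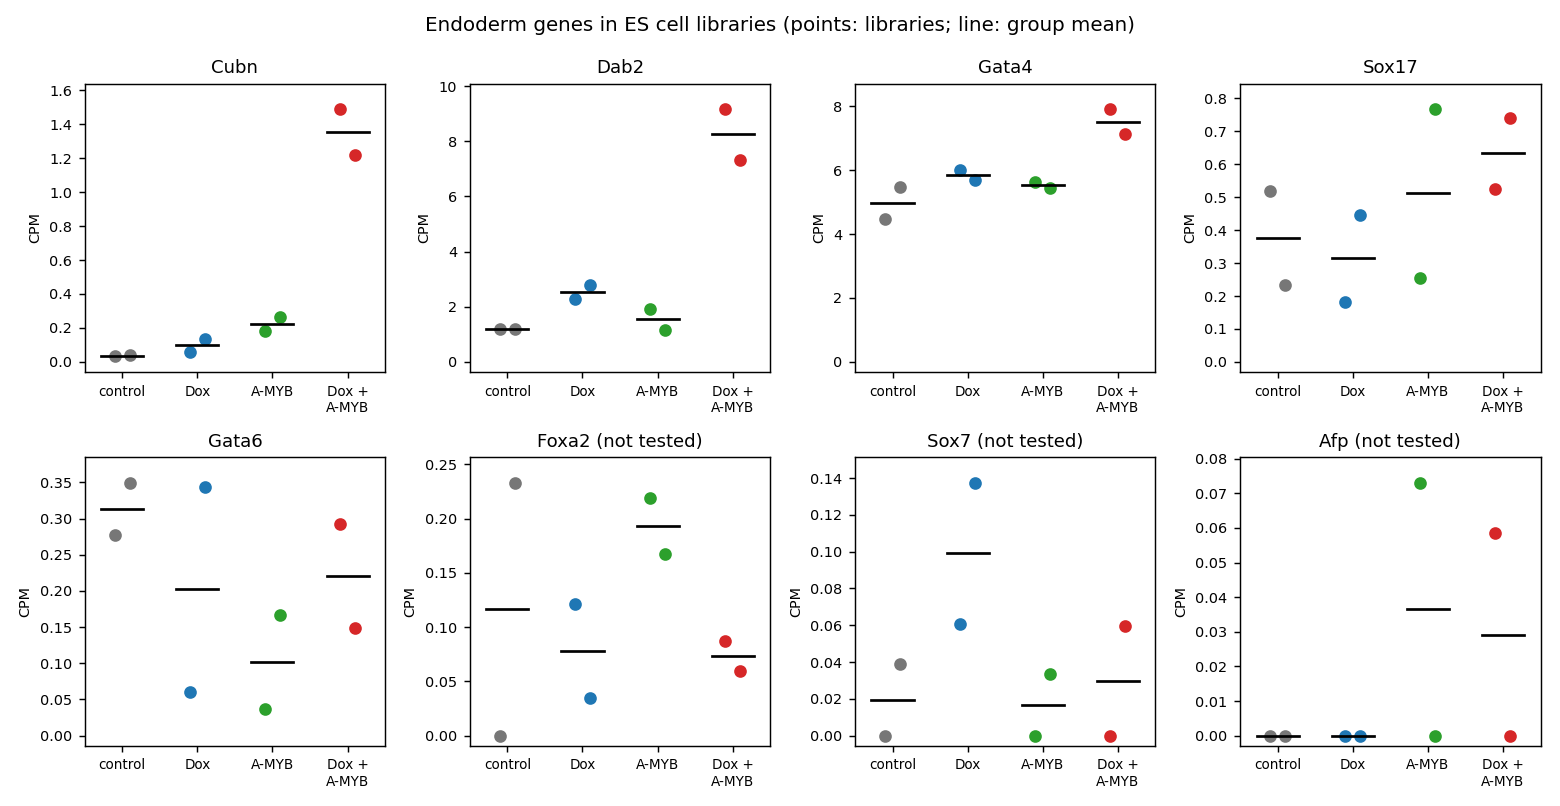
Level of each of the 8 genes in CPM (vertical axis, a separate scale per panel) in the 4 groups (horizontal axis); each point is a library and each line the mean of 2 libraries. Cubn and Dab2 are highest in both Dox + A-MYB libraries, Gata4 is higher there by a smaller margin, and the other 5 genes show no such separation from all other groups. The share of all tested genes with such a separation was not counted.

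Cubn encodes cubilin, a large peripheral membrane receptor that binds intrinsic factor with vitamin B12, albumin and other ligands at the surface of visceral endoderm and kidney tubule. Its gene (gene ID 65969) spans chr2:13276338-13491876 in GRCm38.p6, the assembly that mm10 represents. The control libraries had 1 and 1 counts, those with Dox 2 and 4, those with A-MYB 5 and 8, and those with both agents 51 and 41. Mean levels were 0.0367 ± 0.00298 CPM (SD, n = 2 here and below) for control, 0.0990 ± 0.0544 for Dox, 0.225 ± 0.0598 for A-MYB and 1.35 ± 0.193 for both agents. The libraries of no 2 groups overlapped, yet outside Dox + A-MYB cells no library had more than 8 reads of the gene.

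With 92 counts against 2, the Dox + A-MYB group was 37.0-fold above control by the counts alone (95% Clopper-Pearson interval 9.95 to 310, counting error only). The fitted difference from control passed (edgeR adjusted p = 8.59e-06), and so did those from A-MYB cells (log2 fold change 2.56, SE 0.61, adjusted p = 0.000861) and from Dox cells (3.75, SE 0.69, adjusted p = 5.59e-05). These 3 calls held under each of the 13 alternatives. Neither agent alone passed: the log2 fold change was 1.31 (SE 1.21, adjusted p = 0.439) with Dox and 2.50 (SE 1.05, adjusted p = 0.069) with A-MYB. In the order of levels, control, Dox and A-MYB cells were not told apart by the test, and Dox + A-MYB cells were above the A-MYB cells next to them. The departure from additivity on the log2 scale did not pass either (1.25, SE 1.67, adjusted p = 0.586). Cubn met the minimum for testing only through its Dox + A-MYB libraries, so its place among the tested genes already depended on that group.

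Dab2 encodes an adaptor protein that links receptors of the megalin and cubilin type to clathrin, and it is a marker of primitive endoderm. The gene (gene ID 13132) spans chr15:6299788-6440715. The control libraries held 34 and 31 of its reads (1.19 ± 0.0191 CPM). With Dox the levels were 2.27 and 2.78 CPM, with A-MYB 1.94 and 1.17 CPM, and with both 9.17 and 7.33 CPM. Control and A-MYB libraries overlapped, while the Dox libraries lay above both and the Dox + A-MYB libraries above all others.

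With both agents Dab2 rose from 1.19 ± 0.0191 to 8.25 ± 1.30 CPM (SD, n = 2), a fitted 6.91-fold (edgeR adjusted p = 1.54e-09). Dox raised it in A-MYB cells by a log2 of 2.42 (SE 0.26, adjusted p = 1.58e-08), and A-MYB raised it in Dox cells by 1.71 (SE 0.24, adjusted p = 1.48e-06). These 3 calls held under each of the 13 alternatives. Dox without A-MYB raised Dab2 by 1.08 (SE 0.29, adjusted p = 0.00616), in a comparison in which 17.9% of all tested genes rose. That call was lost without control replicate 1 (adjusted p = 0.0587) and without Dox replicate 2 (0.0539). A-MYB without Dox left it at 0.37 (SE 0.31, adjusted p = 0.388), where 19.5% of genes rose. Dox and A-MYB cells, next to each other in the order control, A-MYB, Dox and Dox + A-MYB, were not told apart (0.71, SE 0.28, adjusted p = 0.102).

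For Dab2 the effect of both agents exceeded the sum of the single effects. The Dox effect was larger in A-MYB cells than in cells without A-MYB by a log2 of 1.34 (SE 0.40, adjusted p = 0.00902), where 16.4% of tested genes had a positive departure. Without A-MYB replicate 2 this adjusted p was 0.0562.

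By comparison, 1 of the 5 tested genes (Dab2) rose with Dox alone, where 32.2% of all genes changed, and 0 with A-MYB alone, where 34.7% changed. DESeq2 also called 0 with A-MYB alone, but it gave no adjusted p for Cubn, Sox17 or Gata6 there. Cubn had an unadjusted edgeR p of 0.0258 with A-MYB alone. Dox in A-MYB cells raised 3, where 28.5% of genes rose, 30.4% fell and 58.9% changed. A-MYB in Dox cells raised 2, where 26.8% rose, 28.4% fell and 55.2% changed. Both agents against control raised 3, where 63.9% changed. In Dox against A-MYB cells 0 passed, where 5.05% of genes were higher, 6.94% lower and 12.0% either. DESeq2 also called 0 there, without an adjusted p for Gata6, and Dab2 had an unadjusted edgeR p of 0.0182. Dox and A-MYB alone share the controls and are not independent. For the interaction 1 (Dab2) was positive, where 24.5% of genes were negative and 40.9% passed. None of the 5 fell in any of the 7 comparisons; the lowest edgeR adjusted p was 0.2 for Sox17 and 0.227 for Gata6.

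Both Cubn and Dab2 were low in control cells, where genes rose more often. Of the 3323 tested genes with a control mean under 2 CPM, 45.9% rose with both agents, and some of these were tested only because of their level in Dox + A-MYB cells. By size of the fitted log2 fold change over control, Cubn stood 147th and Dab2 606th of the 14664 genes.

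The promoters of Cubn and Dab2 are shown because these are the genes with the largest changes and one of the agents was a transcription factor. The sequences are RefSeq's for GRCm38.p6, from 250 bases before to 50 after an annotated start, written 5′ to 3′ on the gene's strand, and 4 of the 8 genes (Cubn, Dab2, Foxa2 and Afp) had an entry. Capitals mark matches on either strand to AACNG, the core motif of MYB factors, which reads CNGTT when it lies on the other strand. They also mark AGATAA, a motif of GATA factors. Its reverse complement reads TTATCT. Cubn has 1 start in the table, at chr2:13491827-13492126 on the minus strand, and Dab2 has 2, at chr15:6299539-6299838 and chr15:6386498-6386797 on the plus strand.
Cubn: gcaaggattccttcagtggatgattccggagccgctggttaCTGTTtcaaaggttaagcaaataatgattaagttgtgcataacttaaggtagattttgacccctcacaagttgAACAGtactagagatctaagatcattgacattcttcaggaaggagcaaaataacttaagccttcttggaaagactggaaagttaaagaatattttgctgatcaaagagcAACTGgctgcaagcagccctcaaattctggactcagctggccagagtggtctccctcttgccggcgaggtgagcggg
Dab2, first start: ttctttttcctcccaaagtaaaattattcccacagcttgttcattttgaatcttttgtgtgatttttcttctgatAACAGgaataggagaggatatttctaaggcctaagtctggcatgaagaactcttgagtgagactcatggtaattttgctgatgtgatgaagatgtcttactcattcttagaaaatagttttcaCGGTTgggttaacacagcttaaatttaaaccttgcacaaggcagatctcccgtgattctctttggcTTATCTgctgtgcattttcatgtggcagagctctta
Dab2, second start: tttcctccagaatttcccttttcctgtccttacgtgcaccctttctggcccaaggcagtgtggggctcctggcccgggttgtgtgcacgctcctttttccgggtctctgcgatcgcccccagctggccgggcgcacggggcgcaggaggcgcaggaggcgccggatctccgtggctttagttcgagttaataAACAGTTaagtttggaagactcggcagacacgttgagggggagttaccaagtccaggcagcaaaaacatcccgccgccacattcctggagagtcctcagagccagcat

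The Cubn window held 3 matches to AACNG and 0 to AGATAA. The first Dab2 window held 2 and 1, and the second held 2 and 0, on opposite strands and overlapping. AACNG is short and common: 79.0% of 19848 promoter windows of genes in the count files held at least 1 match, with a median of 1 per window. AGATAA was found in 9.55% of them. Of the untested genes with an entry, Afp had 5 matches to the MYB motif and 0 to the GATA motif in its window. The 3 Foxa2 windows had 4, 2 and 2 matches to the MYB motif, and 0, 0 and 1 to the GATA motif. Matches were thus not limited to Cubn and Dab2. A match describes the letters only.

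**Figure D2:**
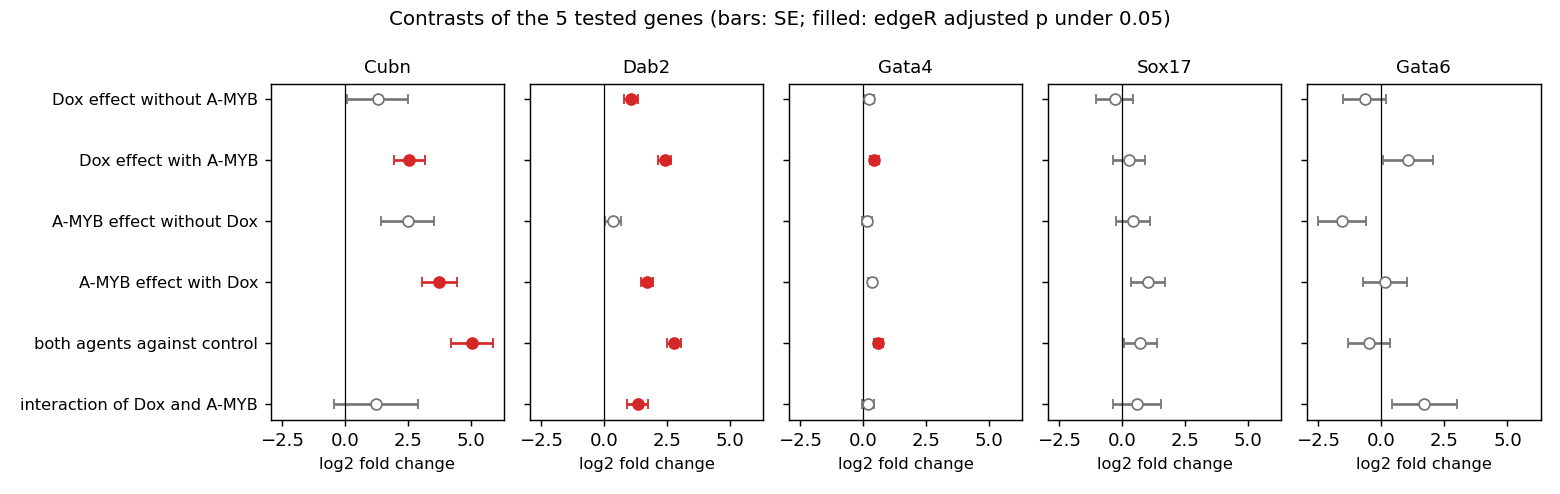
Log2 fold changes (horizontal axis) of the 5 tested genes in 6 comparisons (vertical axis), with bars of 1 SE; filled points passed at an edgeR adjusted p under 0.05. Cubn and Dab2 pass in each comparison that involves Dox + A-MYB cells except the interaction for Cubn, and Sox17 and Gata6 pass in none.

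Gata4 encodes a zinc finger transcription factor of primitive endoderm and, later, of heart and gonad. The gene (gene ID 14463) lies at chr14:63198914-63271712. It was read in every library: control stood at 4.47 and 5.48 CPM, Dox at 6.00 and 5.70, A-MYB at 5.63 and 5.44, and both agents at 7.92 and 7.12. The Dox + A-MYB libraries lay above all 6 others, and the control and A-MYB libraries overlapped.

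With both agents Gata4 rose 1.52-fold, from 4.97 ± 0.715 to 7.52 ± 0.563 CPM (SD, n = 2; edgeR adjusted p = 0.00480). The call was lost without control replicate 1 (adjusted p = 0.0724) and without Dox + A-MYB replicate 1 (0.0536). Dox in A-MYB cells gave a log2 fold change of 0.44 (SE 0.17, adjusted p = 0.0324), in a comparison in which 28.5% of tested genes rose; this adjusted p was 0.0594 with DESeq2, 0.0501 with no filter on low counts, 0.0744 and 0.114 without A-MYB replicates 1 and 2, and 0.161 without Dox + A-MYB replicate 1. A-MYB in Dox cells gave 0.36 (SE 0.17, adjusted p = 0.0789), and it passed (0.55, adjusted p = 0.00898) with scaling by total counts. That scaling moved the median of all genes up by 0.19, so the rise relative to it stayed near that with TMM scaling. Single agents moved Gata4 by 0.24 (SE 0.18, adjusted p = 0.34) with Dox and 0.16 (SE 0.18, adjusted p = 0.55) with A-MYB. No pair of neighbours in the order control, A-MYB, Dox and Dox + A-MYB differed by the test.

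Gata6 encodes the transcription factor that is among the earliest marks of primitive endoderm fate. It had 8 and 9 counts in control, 2 and 10 with Dox, 1 and 5 with A-MYB, and 10 and 5 with both agents. The control libraries were above the A-MYB libraries, and all other pairs of groups overlapped. Dox + A-MYB cells stood at 0.220 ± 0.102 CPM against 0.313 ± 0.0513 in control (log2 fold change -0.49, SE 0.83, edgeR adjusted p = 0.619), and A-MYB cells at 0.102 ± 0.0922 (-1.55, SE 0.96, adjusted p = 0.227). No change of Gata6 was detectable at this depth.

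Sox17 encodes an HMG-box transcription factor of primitive and definitive endoderm (gene ID 20671, chr1:4490928-4497426). Counts were 15 and 6 in control, 6 and 13 in Dox, 7 and 23 in A-MYB and 18 and 25 in Dox + A-MYB libraries. The Dox + A-MYB pair lay above the control and the Dox pairs, with a gap to the higher control library of 0.526 against 0.519 CPM, while the 2 A-MYB libraries lay on either side of it. Sox17 stood at 0.634 ± 0.153 CPM with both agents against 0.376 ± 0.202 in control (log2 fold change 0.73, SE 0.66, edgeR adjusted p = 0.344). Its largest fitted difference was that of A-MYB in Dox cells (1.02, SE 0.67, adjusted p = 0.20). The direction of 5 of its 7 comparisons changed when some single libraries were left out.

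Sox7 encodes a close relative of SOX17. It lies 672 kb from Gata4 on chromosome 14 (gene ID 20680, chr14:63943706-63950732). It had 0 and 1 counts in control, 2 and 4 in Dox, 0 and 1 in A-MYB and 0 and 2 in Dox + A-MYB libraries. The Dox libraries had the most reads, but at most 4 reads stand behind any of these values, and 3 counts in a library correspond to 0.0876 to 0.117 CPM.

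Foxa2 encodes a forkhead factor of visceral and definitive endoderm (gene ID 15376, chr2:148042877-148046969). Its counts were 0 and 6 in control, 4 and 1 in Dox, 6 and 5 in A-MYB and 3 and 2 in Dox + A-MYB libraries. The Dox + A-MYB libraries lay within the range of the control pair. With every gene that had a read put in the model, the log2 fold change with both agents was -0.60 (edgeR adjusted p = 0.736).

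Afp encodes alpha-fetoprotein, the main serum protein of visceral endoderm and fetal liver (gene ID 11576, chr5:90490714-90508907). It had 0 counts in all 4 libraries without A-MYB and 2 counts in 1 of the 2 libraries of each group with A-MYB. Read number does not allow a statement on its difference between groups.

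Across the 8 libraries, log2 CPM (with a prior count of 2) of Dab2 and Gata4 correlated with Pearson's r = 0.921, of Dab2 and Cubn with 0.872 and of Gata4 and Cubn with 0.866. Gata6 had r = -0.0433 to 0.357 with the other 4 tested genes. These values describe 4 groups rather than 8 independent points, and they were not recomputed without the Dox + A-MYB pair. By the same measure, the genes closest to Cubn were Dnajc18 (r = 0.996) and Uvrag (0.993), those closest to Dab2 were Gabbr1 (0.997) and Fbxw4 (0.993), and those closest to Gata4 were Vwa3a (0.995) and Ssbp3 (0.983). For Sox17 they were Gm128 (0.970) and Arid3c (0.965), and for Gata6 Vipas39 (0.962). Each was among the 2 highest of all tested genes. Uvrag, for example, stood at 41.4 ± 0.927 CPM in control and 109 ± 2.95 CPM in Dox + A-MYB cells (SD, n = 2).

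The 3 nearest genes on each side of Cubn, Dab2 and Gata4 were looked up after these results had been seen. Of these 18 neighbours 14 were tested, and with both agents 2 rose, 7 fell and 5 did not pass. Of all tested genes 63.9% changed in this comparison (33.5% rose and 30.4% fell), so the number of neighbours that changed is near that share. The nearest to Cubn, Rsu1 at 4.9 kb, had a log2 fold change of -0.34 (edgeR adjusted p = 0.00052, and 0.24 with total counts). Vim, 82.4 kb from Cubn, fell from 261 to 64.1 CPM. The 2 that rose were Trdmt1 (0.33, adjusted p = 0.0448, which was over 0.05 in 8 of 13 alternatives, to at most 0.211) and Fyb, 82.1 kb from Dab2, which had 0 counts in control and 25 in all libraries together. C9, 4.63 kb from Dab2, had 0 counts in every library. Neil2, the nearest to Gata4, did not pass (0.30, adjusted p = 0.0891, and 0.00337 with total counts).

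Cubilin has no membrane anchor of its own: amnionless (Amn) anchors it, megalin (Lrp2) is its partner in uptake, and Lrpap1 is a chaperone of megalin. Amn stood at 0.346 and 0.272 CPM in control, 0.545 and 0.790 in Dox, 0.657 and 0.501 in A-MYB and 2.13 and 1.81 in Dox + A-MYB libraries, and rose with both agents by a log2 of 2.65 (SE 0.50, edgeR adjusted p = 5.33e-05). Lrp2 stood at 20.6 and 20.2, 24.4 and 26.1, 22.6 and 22.8, and 48.2 and 47.3 CPM in the same order, and rose by 1.22 (SE 0.09, adjusted p = 1.01e-11). In both genes the Dox + A-MYB libraries lay above all 6 others, a pattern whose share among all tested genes was not counted. Lrpap1 rose by 0.16 (SE 0.07, adjusted p = 0.0368), from 162 ± 2.82 to 181 ± 13.1 CPM (SD, n = 2), a call that was lost with DESeq2's size factors. The genes for cubilin, amnionless, megalin and DAB2 thus all rose with both agents, in a comparison in which 33.5% of all tested genes rose. Alone, Dox raised Lrp2 by 0.30 (adjusted p = 0.0139, which was over 0.05 without either control replicate or without Dox replicate 2, to at most 0.131), and A-MYB alone left Amn at 0.89 (adjusted p = 0.239) and Lrp2 at 0.15 (adjusted p = 0.233).

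**Figure D3:**
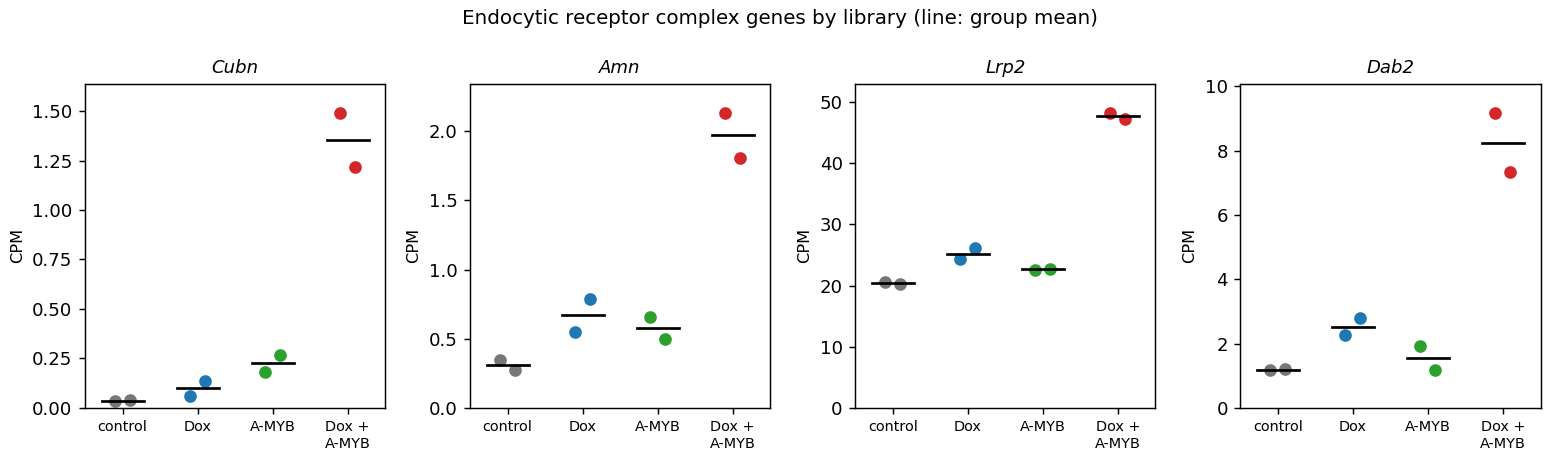
Level in CPM (vertical axis, a separate scale per panel) of the genes for cubilin (Cubn), amnionless (Amn), megalin (Lrp2) and the adaptor DAB2 (Dab2) in the 4 groups; each point is a library and each line a group mean. In each panel both Dox + A-MYB libraries lie above the other 6. The share of all tested genes with this separation was not counted.

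Another 3 lists were set beside the 8 genes. They hold 55 other genes of endoderm, of which 42 were tested. Of 19 genes of visceral endoderm uptake and secretion, 12 were tested, and with both agents 6 rose, 1 fell and 5 did not pass. Of all tested genes, 33.5% rose and 30.4% fell in this comparison. The median log2 fold change was 0.69, against 0.05 over all tested genes. Beside Amn, Lrp2 and Lrpap1, the genes that rose were Mttp, which loads lipid onto apolipoprotein B (4.10 ± 0.418 CPM in control and 16.0 ± 0.904 with both; log2 fold change 1.96, SE 0.19, edgeR adjusted p = 2.16e-09), Ahsg, which encodes fetuin A (1.37, SE 0.21, adjusted p = 3.84e-06), and Apob itself (2.22, SE 0.85, adjusted p = 0.0264). The Apob call was lost without control replicate 1 or Dox + A-MYB replicate 1 (adjusted p at most 0.251). Apoe fell by a log2 of 0.80 (adjusted p = 1.2e-08). Of this list 5 rose with DESeq2's size factors and 7 with total counts. The classic serum proteins were near 0: Ttr had 0 counts in control and 12 in Dox + A-MYB cells, Alb had 0 and 4, and Fabp1 and Apoa4 had 0 in both.

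Of 18 regulators and signals of endoderm, 13 were tested, and with both agents 6 rose, 3 fell and 4 did not pass (median 0.87), beside 33.5% and 30.4% of all tested genes. Fgfr2, an FGF receptor of primitive endoderm, went up from 0.953 ± 0.0256 to 13.6 ± 1.25 CPM, a log2 fold change of 3.83 (SE 0.23, edgeR adjusted p = 1.84e-13). It also rose with Dox alone (1.58, SE 0.26, adjusted p = 4.91e-05) and with A-MYB alone (1.55, SE 0.26, adjusted p = 6.05e-05). The Wnt antagonist gene Dkk1 rose by 2.87 (SE 0.45), Pdgfra, which encodes a receptor that marks primitive endoderm, by 1.75 (SE 0.56), Hnf4a, a regulator of visceral endoderm differentiation, by 1.37 (SE 0.16) and Otx2 by 0.87 (SE 0.12). Gsc (-1.90, SE 0.33), Eomes (-1.35, SE 0.11) and Hhex (-0.79, SE 0.16) fell. Fgfr2, Dkk1 and Pdgfra had control means under 2 CPM, as did Amn and Apob of the list before, while Hnf4a and Otx2 did not. Among tested genes that low in control, 45.9% rose with both agents. Pdgfra, Hnf4a, Otx2, Eomes and Hhex were picked after their values were seen. Gata5, Lhx1 and Cer1 had 0 counts in control cells, and Cer1 had 0 in Dox + A-MYB cells as well.

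The basement membrane and parietal endoderm list had a median below 0. Of its 18 genes, 17 were tested, and 3 rose, 10 fell and 4 did not pass with both agents (median -0.49), where 33.5% of all tested genes rose and 30.4% fell. Col4a1, a collagen IV chain, stood at 28.1 ± 0.0274 CPM in control and 5.52 ± 0.414 with both agents, a log2 fold change of -2.35 (SE 0.15, edgeR adjusted p = 1.25e-12). Nid1, which links laminin to collagen IV, had 276 ± 6.63 CPM in control and 58.1 ± 2.26 with both (-2.25, SE 0.06, adjusted p = 4.31e-20). The keratin gene Krt8 fell by 1.35. Of the other keratin genes listed, Krt18 had a mean of 6.37 CPM in control and 11.1 with both agents. Krt19 had means of 15.6 and 6.29 CPM. With total counts 5 rose and 9 fell. Plat, tissue plasminogen activator, rose by 2.48 (SE 0.38, adjusted p = 3.60e-06). Members of this list also fell with single agents: 11 fell and 1 rose with Dox, and 12 fell and 0 rose with A-MYB, where 14.3% and 15.2% of all tested genes fell. In the regulator list 3 rose and 1 fell with Dox and 1 rose and 2 fell with A-MYB. In the uptake and secretion list 1 rose and 2 fell with Dox and 0 rose and 3 fell with A-MYB.

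**Figure D4:**
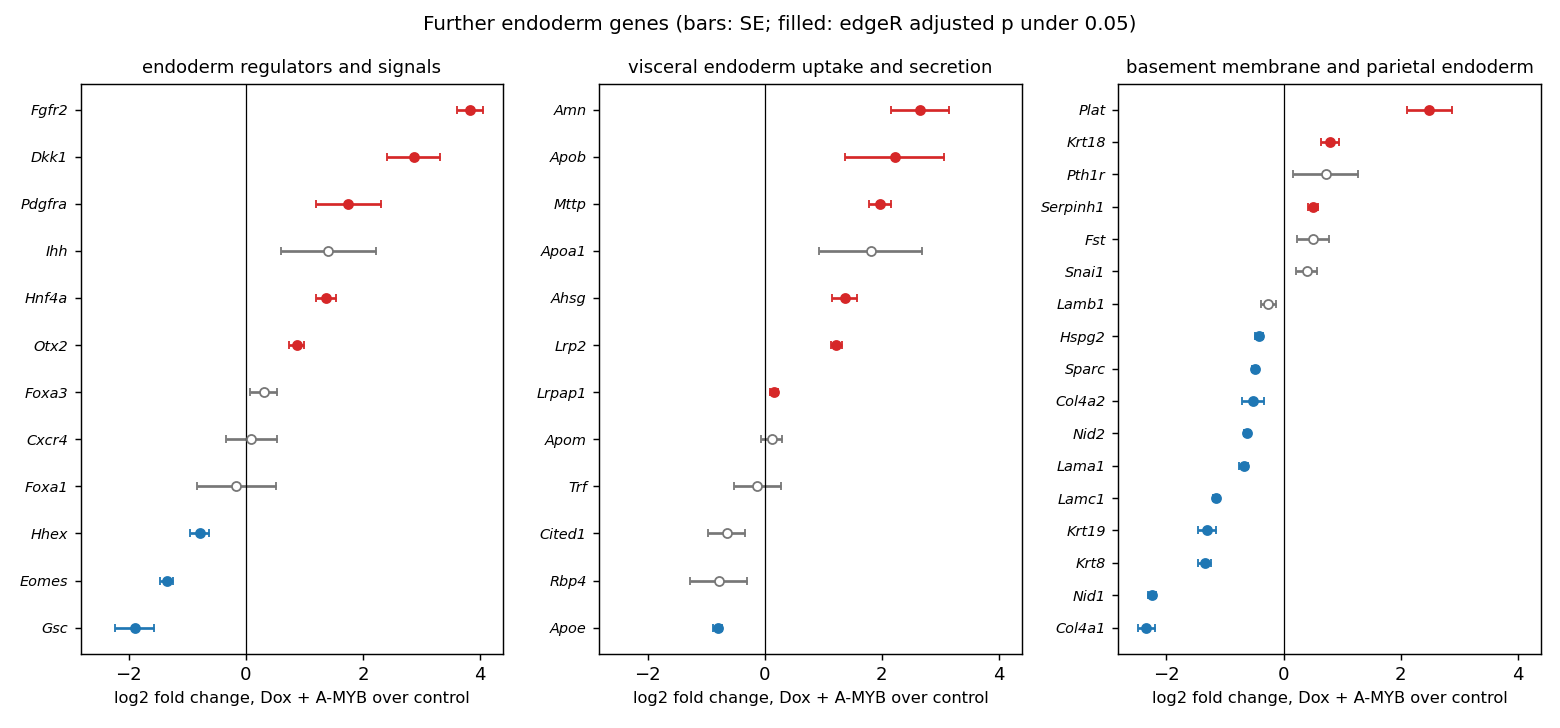
Log2 fold change of Dox + A-MYB over control cells (horizontal axis, bars of 1 SE) for tested genes of 3 endoderm lists (vertical axis); filled points passed at an edgeR adjusted p under 0.05, red above and blue below 0. Fgfr2 and Amn lead the first and second list, and 10 of 17 genes of the basement membrane list lie below 0 and passed.

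Markers of other cell types moved in the same comparison, in which 33.5% of all tested genes rose and 30.4% fell. All 10 pluripotent cell markers, Pou5f1, Sox2 and Nanog among them, were tested and fell with both agents (10 fell and 0 rose; median -0.53), and their summed level was 4416 to 4673 CPM in Dox + A-MYB against 6712 to 6789 CPM in control libraries. With total counts 8 of them fell. The markers were present in every group, at summed levels of 7074 to 7121 CPM with Dox and 6419 to 6654 CPM with A-MYB. Of 7 trophoblast markers 6 were tested, and 3 rose and 3 fell (0 fell with total counts), with sums of 58.9 to 66.0 against 68.7 to 74.2 CPM. Most of these sums was Tfap2c, with means of 62.1 CPM in control and 52.3 with both agents. Cdx2 went from 2.60 to 1.41 CPM and Ascl2 from 5.41 to 3.35. Gata3 went from 0.713 to 2.90 CPM, Hand1 from 0.318 to 1.30 and Krt7 from 0.244 to 1.08. Of 7 mesoderm markers, all tested, 1 rose and 1 fell (8.56 to 9.31 against 6.61 to 6.68 CPM). Most of the sum with both agents was Twist1, at 6.08 to 6.32 CPM against 1.73 to 2.02 in control. Mean levels of T, Mixl1, Kdr, Tbx6 and Hand2 were lower with both agents than in control, and that of Mesp1 was higher. The median log2 fold change of the mesoderm markers was -0.64. Of 6 neuroectoderm markers 5 were tested, and 3 rose and 1 fell (133.7 to 134.7 against 105.6 to 107.3 CPM). Of 7 fibroblast markers 3 were tested, and 1 rose and 2 fell (sums over all 7 of 2.79 to 3.77 against 4.23 to 5.85 CPM). Postn, Dcn and Lum had 0 counts in control, with 16 counts of Dcn and 19 of Lum with both agents. The 8 endoderm genes summed to 16.7 to 19.5 against 6.48 to 7.58 CPM. In bulk RNA, more cells of a type and more RNA per cell cannot be told apart, and the part of these markers in the rise of Cubn, Dab2 and Gata4 was not tested.

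The series also holds 4 lists of H3K27ac peaks from C57BL/6J testes at 8 to 12 weeks (pachytene spermatocytes, 1 male per preparation), 2 wild type and 2 homozygous for the repro9 allele of A-myb. H3K27ac is a histone mark of active promoters and enhancers. The sources used here do not say what each list was called against, so it could not be checked that a listed peak marks a gain of H3K27ac over input. No peak lay within 1000 bases of an annotated start of Cubn, Dab2, Foxa2 or Afp in any list, but the same held for nearly all genes: a peak was found there for 0.482 to 2.05% of 16375 genes. These lists thus say little about any promoter. Over whole genes with 1000 bases on either side, 11.7 to 14.7% of genes had a peak, and of the 8 genes only Cubn had any, with 0 and 1 peaks in the wild-type lists and 2 and 0 in the mutant lists. Cubn is also the longest of the 8 genes, and the share of genes with a peak was not split by gene length.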

How the data were processed

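RNA-seq of 8 ES cell libraries and H3K27ac ChIP-seq peak lists of 4 spermatocyte libraries were used; 4 input libraries were not analysed here. Raw read counts per gene symbol make up the deposited ES cell tables; their 5 summary lines, such as no-feature reads, stayed out of library sizes and tests. Per the submitters' processing notes, bcl2fastq 2.20.0, HISAT2 2.1.0, HTSeq, Bowtie2 2.3.3.1 and MACS 1.4.2 were used with build mm10; settings, strand use in counting and the control of each peak call are not given in the sources used here. The deposited peak lists give tag counts, a score and the fold enrichment as a ratio by the authors; neither the score nor the ratio is reported, and the ratio served only as an alternative filter.

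Of 23420 genes, 18917 had a count and 14664 passed filterByExpr (minimum count 10) on the 4 groups. Counts were scaled by TMM and fitted with edgeR 4.0.16 (glmQLFit, robust; R 4.3.3), with a term for each group, leaving 4 residual degrees of freedom. Contrasts were tested two-sided with glmQLFTest. SE is the absolute log2 fold change over the square root of F. The biological coefficient of variation was 0.0631. Counts were also simulated for 14664 genes, of which 200 were changed. When both agents were compared with control, 89% of 2-fold and 96% of 4-fold changes among these 200 were recovered. In the data, 9368 genes passed in that comparison, so the simulation differs from the data in this respect. The recovered shares were not split by read number, so they do not give the power for genes with few reads. Replicates differed by more than sampling noise (chi-square per degree of freedom 5.35 to 14.3).

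The 8 genes and the further lists were chosen with earlier results of these data known. Named were the 8 genes, up to 4 genes per further list and contrast with the largest change among those that passed, and the 2 genes most correlated with each tested member. Alternatives were DESeq2 1.42.0, its size factors, total counts, no filter, a replicate block and leaving out each library. Some genes that this rule names are not reported here or drawn, though list counts include them. The neighbour genes were looked up after seeing the data. Comparisons that share libraries (Dox alone and A-MYB alone share the controls) are not independent.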

Additional observations from a re-analysis of the deposited data

Results flagged for a closer look

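The Dox effect in A-MYB cells differed from that without A-MYB, by the interaction term of the edgeR model, for Dab2 and for 16 of the further endoderm genes (13 with a positive and 3 with a negative difference). Given here are Dab2 and the 11 genes that the rule of up to 4 genes per list names. For Dab2 the difference in log2 fold change was 1.34 (adjusted p = 0.00902).

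Among those 11, larger with A-MYB were the Dox effects on the regulator gene Hnf4a (difference 1.41, adjusted p = 4.89e-05), the lipid transfer gene Mttp (2.16, adjusted p = 1.98e-06), the transferrin gene Trf (1.73, adjusted p = 0.0248), Ahsg (0.83, adjusted p = 0.0317) and the megalin gene Lrp2 (0.77, adjusted p = 3.44e-05). The same was found for Plat (2.34, adjusted p = 0.00262), the laminin gene Lamb1 (1.35, adjusted p = 3.73e-06), the collagen gene Col4a2 (1.21, adjusted p = 0.00113) and the collagen chaperone gene Serpinh1 (1.05, adjusted p = 2.47e-07). Lower with A-MYB, among the same 11, were the Dox effects on Eomes (-1.05, adjusted p = 5.96e-06) and Hhex (-0.66, adjusted p = 0.0188). For Dab2 the adjusted p was 0.0562 without A-MYB replicate 2. The calls of Hhex, Trf and Ahsg were each lost in 5 of 13 alternatives: Hhex with total counts or without control replicate 1, Dox replicate 1, A-MYB replicate 2 or Dox + A-MYB replicate 2 (adjusted p at most 0.120), Trf without either control replicate, Dox replicate 2, A-MYB replicate 2 or Dox + A-MYB replicate 1 (at most 0.112), and Ahsg without control replicate 2, either Dox replicate, A-MYB replicate 2 or Dox + A-MYB replicate 1 (at most 0.146). Mttp, for example, stood at 4.40 and 3.81 CPM in control, 3.76 and 4.36 in Dox, 2.67 and 4.54 in A-MYB and 15.4 and 16.7 in Dox + A-MYB libraries. A positive difference is not a rise over control. Mean levels with both agents were below control for Trf (1.56 against 1.70 CPM), Lamb1 (14.2 against 17.0) and Col4a2 (5.50 against 7.91). Those of Hnf4a, Mttp, Ahsg, Lrp2, Plat and Serpinh1 were above control. Of all 14664 genes, 16.4% had a positive and 24.5% a negative interaction that passed, 40.9% together.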

How the results depend on the processing

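With 2 libraries per group, and at most 25 reads per library for Gata6, Sox17, Sox7, Foxa2 and Afp, only large changes of those genes could have been seen. The rise of Cubn and Dab2 with both agents kept its call under all 13 alternatives, at log2 fold changes of 4.88 to 5.28 and 2.59 to 3.02. For A-MYB in Dox cells, scaling by total counts moved the median of all genes up by 0.19 (0.23 with both agents against control); 23 further endoderm genes then rose, against 15, and 5804 of all genes, against 3935. The replicate numbers of the titles paired no samples (correlation of deviations -0.0269 to 0.0843 between groups); with a replicate block 3 of the 8 genes rose with both agents, as without it, and 9487 of all genes passed in place of 9368.

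Leaving out each library gave 0 to 1 of the 8 genes higher with Dox alone and 0 to 1 with a positive interaction. It gave 3 to 5 further endoderm genes higher with Dox alone, 1 to 3 with A-MYB alone, and 1 to 5 higher and 3 to 7 lower in Dox against A-MYB cells. The log2 fold changes that changed sign, none of which passed, ranged as follows. For Gata6 they were -2.29 to 0.14 with Dox alone, -0.63 to 1.80 with A-MYB in Dox cells and -0.74 to 2.30 in Dox against A-MYB cells. For Sox17 they were -1.05 to 0.40 with Dox alone, -0.27 to 1.29 with Dox in A-MYB cells, -0.57 to 1.14 with A-MYB alone, -1.49 to 0.27 in Dox against A-MYB cells and -0.11 to 1.59 for the interaction. For Dab2 with A-MYB alone they were -0.056 to 0.70. With both agents they were -0.18 to 0.044 for Pter, the neighbour of Cubn (0.17 with total counts), and -0.83 to 1.38 for Fam167a, that of Gata4 (0.087 with total counts and 0.020 with the replicate block). The cause was not tested. Of Cubn, Dab2, Foxa2 and Afp, 0 had a start-site peak in both lists of a genotype under each alternative for the peaks. A peak in only 1 list of a genotype would not have been counted there.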
